A study of Drosophila melanogaster with 8 samples.

Results

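The right arm of chromosome 3 (3R) of Drosophila melanogaster, from its centromere-side end to 1 Mb before its telomere-side end, is described here by the places where heterochromatin protein 1a (HP1a) was enriched over input DNA. A region belonged to it when its list placed it on 3R and its midpoint lay in that stretch. This rule used position only. It took 832 of the 5697 regions of the deposited combined set, and 613 of 5406, 657 of 5127, 502 of 4903 and 422 of 4260 regions of replicates 1 to 4. The first 2 Mb, called the centromere-side end, held 76 of the 832 combined regions, and the stretch beyond it, called the arm between its ends, held 756.

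All samples came from wild-type Oregon-R embryos labelled 14 to 16 h old, with no treatment and no other genotype. Chromatin immunoprecipitation and sequencing (ChIP-seq) with the antibody wa191, which targets HP1a, gave 4 ChIP samples, and 4 input samples served as their controls. Whole embryos were used, so the lists average over all cell types present at that age. Whether separate embryo collections stand behind the replicates is not stated, so p-values measure only the spread between these samples, which may be technical. The read depth behind the lists is unknown.

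HP1a binds histone H3 methylated at lysine 9 through its chromodomain and joins to itself and to other silencing proteins through its chromoshadow domain. In flies it is best known for coating the repeat-rich chromatin around centromeres and for the silencing of genes moved next to that chromatin. It is also found at scattered sites in the gene-rich arms, some of them at transcribed genes. 3R is a mostly gene-rich arm whose assembled sequence, in the build used here, begins on the centromere side.

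HP1a-enriched regions were spread along the whole of 3R and took up a small share of it. Between its ends the arm was covered over 5.30, 5.92, 4.17 and 3.37% of its bases in replicates 1 to 4, with a mean of 4.69% ± 1.14 (SD, n = 4). Replicates 1 and 2 lay above replicates 3 and 4. The regions were 20.2 ± 3.97 per Mb (SD, n = 4), with a lowest value of 15.4 and a highest of 24.1. Their median width was 2051, 2078, 2052 and 2017 bp in replicates 1 to 4, so the replicates differed in how many regions were called and hardly in how wide a typical region was. The combined set, which is the submitters' own list for the replicates together, covered 7.58% of the same stretch. Its coverage was higher than that of any single replicate.

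The centromere-side end of 3R was little more covered than the rest of the arm. Its covered share was 5.66, 6.75, 4.82 and 4.25% in replicates 1 to 4, with a mean of 5.37% ± 1.09 (SD, n = 4). Divided by the covered share between the ends within each replicate, this came to 1.07, 1.14, 1.16 and 1.26, a mean ratio of 1.16 ± 0.0794. The end was the higher in 4 of 4 replicates, and sign flips of the 4 log2 ratios (exact permutation test, two-sided) gave p = 0.13, the smallest p that 4 replicates allow (Benjamini-Hochberg adjusted p = 0.225 over 9 tests). With 4 replicates that test cannot reach 0.05, so the sign count and the spread carry the comparison. Regions at the end were no wider and scored no higher in a way that exceeded the replicate spread. The log2 ratio of median widths was -0.02 ± 0.02 (exact sign-flip permutation p = 0.25, adjusted p = 0.321), and the difference of median scores was -0.00384 ± 0.0573 (exact sign-flip permutation p = 0.875, adjusted p = 0.875). The score is the authors' own value for a region, has no stated unit or scale, and is used here only within a list.

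Within the centromere-side end, the covered share was higher in the first 300 kb than in the rest. The first 300 kb were covered over 9.12, 13.5, 12.4 and 10.4% in replicates 1 to 4, with a mean of 11.4% ± 1.97 (SD, n = 4). From 300 kb to 2 Mb the values were 5.05, 5.57, 3.48 and 3.16%, and all 4 lay below every value of the first 300 kb. Replicates 3 and 4 covered the first 300 kb as widely as replicates 1 and 2, with a ratio of their means of 1.01. Between the ends of the arm that ratio was 0.672. The first Mb was covered over 7.21% ± 1.17 and the second over 3.53% ± 1.24, and the second lay below the first in every replicate. The 300 kb length was chosen after the values were seen, so these figures are a description.

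The low coverage of its centromere-side end set 3R apart from 2L, 3L and X. The corresponding 2 Mb were covered over 31.1, 39.0, 34.04 and 35.6% on 2L, over 55.9, 64.5, 61.1 and 64.5% on 3L, and over 11.5, 14.5, 11.9 and 10.8% on X. The highest 3R value, 6.75%, lay below the lowest value on each of those arms. As ratios within a replicate, 3R stood at 0.154 ± 0.0289 of 2L, at 0.0877 ± 0.0185 of 3L and at 0.440 ± 0.0472 of X (SD, n = 4). Each was below 1 in 4 of 4 replicates, with p = 0.13 by the exact sign-flip permutation test (adjusted p = 0.225). Where the assembled sequence of an arm stops relative to its centromere differs between arms, and how far that sets these shares was not tested.

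**Figure D1:**
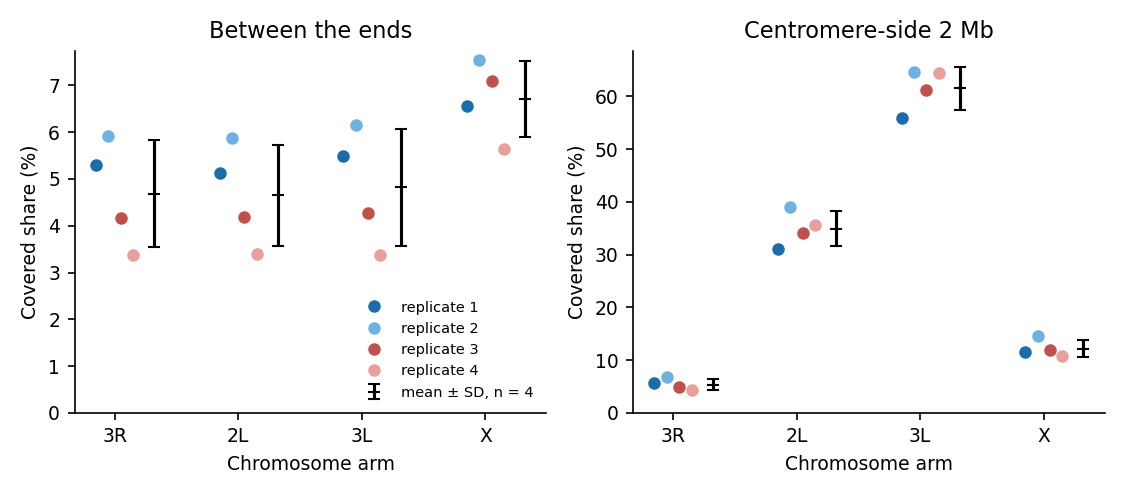
Covered share (%) on 3R, 2L, 3L and X, between the ends of each arm (left) and in the 2 Mb at its centromere side (right). Points are the 4 replicates and bars the mean ± SD (n = 4), with different vertical scales in the panels. Between the ends 3R lies level with 2L and 3L, while its centromere-side values of 4.25 to 6.75% are the lowest of the 4 arms.

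Between its ends, 3R was covered to nearly the same extent as 2L and 3L when 2 Mb at the centromere side were set apart. The covered share of 3R divided by that of 2L was 1.03, 1.01, 0.995 and 0.993 in replicates 1 to 4, a log2 ratio of 0.01 ± 0.03 (exact sign-flip permutation p = 0.625, adjusted p = 0.703). Against 3L the ratio was 0.966, 0.961, 0.974 and 1.00, a log2 ratio of -0.04 ± 0.03 (exact sign-flip permutation p = 0.25, adjusted p = 0.321). Neither difference had one sign in every replicate. With 1 Mb set apart in place of 2 Mb the log2 ratio to 3L was -0.53, below 0 in 4 of 4 replicates. By regions per Mb, 3R was above 2L in 4 of 4 replicates, with a log2 ratio of 0.16. Against X the ratio was 0.809, 0.785, 0.586 and 0.597, a mean of 0.695 ± 0.119. 3R was lower in each of the 4 replicates (p = 0.13 by exact sign-flip permutation, adjusted p = 0.225), and replicates 3 and 4 stood further from 1 than replicates 1 and 2.

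Along the arm the coverage varied several-fold between windows of 1 Mb, in much the same order in all replicates. The window from 5000001 to 6000000 was the most covered, at 9.29, 10.2, 8.22 and 7.27% in replicates 1 to 4, or 1.90 ± 0.204 times the share between the ends (SD, n = 4). It held 50 combined regions, of which 27 were overlapped in every replicate. The share overlapped in every replicate was 41.3% over all 832 combined regions of 3R. The first Mb at the centromere side came next by mean, at 7.21%, and the window from 10000001 to 11000000 followed at 6.47% ± 1.68. The least covered window, from 18000001 to 19000000, had 2.56, 3.11, 1.72 and 1.19%. It was followed by 23000001 to 24000000, at 2.20% ± 0.697, and 22000001 to 23000000, at 2.93% ± 1.19. The rank correlation of the 27 windows between replicates ran from 0.811 (replicates 2 and 4) to 0.948 (replicates 3 and 4). This describes the windows, which are neighbours on a single chromosome and share a library within each replicate.

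**Figure D2:**
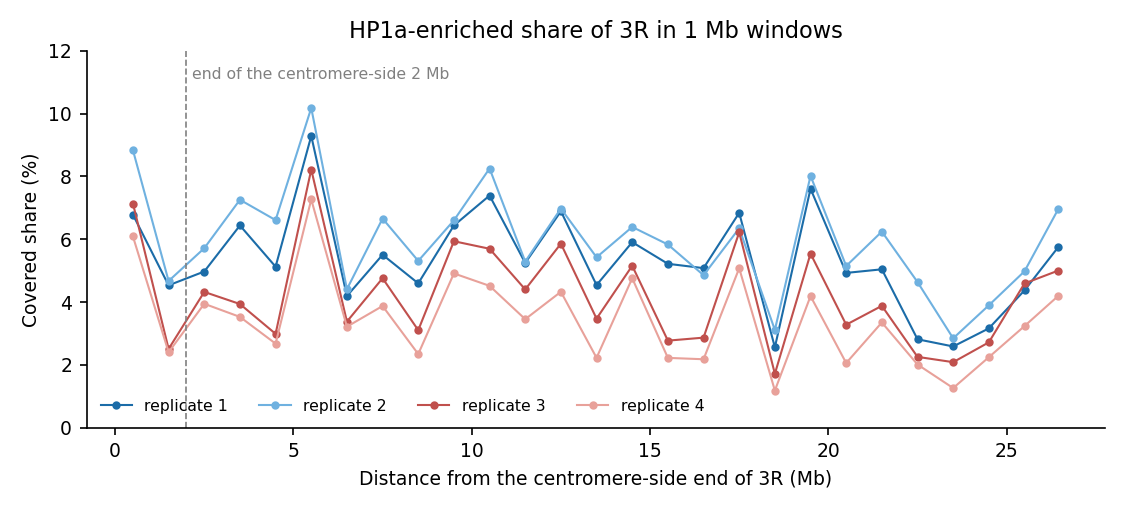
Covered share (%) of each 1 Mb window of 3R against its distance from the centromere-side end (Mb), with 1 line for each of the 4 replicates. The dashed line marks the end of the centromere-side 2 Mb. All 4 lines peak in the window that starts 5 Mb from the end, at 7.27 to 10.2%, and replicates 1 and 2 lie above replicates 3 and 4 in 25 of 27 windows.

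At a finer scale of 100 kb the highest windows were 9800001 to 9900000, 17400001 to 17500000 and 12000001 to 12100000. The first had 23.0, 25.0, 16.0 and 17.0% of its bases enriched in replicates 1 to 4, with a mean of 20.2% ± 4.44. The second had 21.5, 20.5, 19.5 and 14.4%, and the third 18.97, 15.7, 20.1 and 10.3%. In the third, replicate 3 was the highest, against the usual order of the replicates. Of the 269 windows of this size, 17 held no enriched base in any replicate. The longest stretch without a region in any of the 5 lists ran from 18725909 to 18998361, which is 272 kb, within the least covered Mb. Further stretches from 24166557 to 24424240 (258 kb) and from 12279837 to 12527545 (248 kb), were empty in all lists as well.

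The highest-scoring regions of 3R that all replicates shared were a little over 2 kb wide and were found almost whole in every replicate. Among regions that every replicate overlapped (by 1 bp or more), the 10 highest scores between the ends belonged to regions of 2188 to 2487 bp. The 319 regions between the ends from which these were taken had a median width of 2230 bp. Over all 832 combined regions of 3R the median was 2063 bp. Over these 832 regions score and width rose together, with a rank correlation of 0.692 across regions that share 1 list. Each of these 10 was covered over at least 94.0% of its length in each replicate. The highest, from 8292493 to 8294748, had a combined score of 3.31 and scores of 3.29, 3.29, 2.53 and 2.41 in replicates 1 to 4, and ranked first on 3R in all of them. The next places were held by 8333603 to 8335790 (combined score 3.13, and 2.93, 3.19, 1.85 and 1.65 in the replicates) and 8330314 to 8332558 (3.11, and 2.83, 3.27, 1.88 and 1.72). Their ranks within 3R were 6, 3, 11 and 15 for the former and 12, 2, 9 and 7 for the latter. The region from 15146604 to 15148998 had a combined score of 2.92 and ranked 2, 7, 17 and 17 in replicates 1 to 4. The others, in falling order of combined score from 2.91 to 2.70, began at 9842466, 13541851, 5252966, 9508798, 7429507 and 5051564. Of these, the region at 13541851 ranked 4 of 613 in replicate 1 and 33 of 422 in replicate 4.

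At the centromere-side end 25 regions were found in all 4 replicates, against 319 between the ends, so their highest scores are not compared. The leading region there, from 911837 to 914795, had a combined score of 2.49 and stood at rank 21 among all 3R regions. It scored 2.44, 2.55, 1.46 and 1.12 in replicates 1 to 4. The region from 277215 to 280257 followed at 2.43, and the third began at the first base of the assembled arm and ended at 2067, with a score of 2.30. That first region of the arm was covered over 98.6, 98.5, 100 and 99.9% in replicates 1 to 4. It touches the end of the sequence, so its true extent is not known from these lists. The regions from 1107675 to 1109861 (2.20) and from 57143 to 59712 (1.83) completed the 5 highest. The last of these ranked 138, 61, 58 and 13 in replicates 1 to 4.

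Several of the top scores lay in a single run. The densest run of the arm, taken as the most combined regions with midpoints within 100 kb, went from 8247205 to 8335790, a length of 88.6 kb with 14 combined regions. Of these, 6 were overlapped in all 4 replicates, 5 in replicates 1 and 2 only, and 1 in none. Over all 832 combined regions of 3R the corresponding shares were 41.3, 13.6 and 14.4%. The 3 highest scores of 3R fell in the run. So did the region from 8302176 to 8304413, at rank 12 with a score of 2.70, and that from 8327045 to 8329211, at rank 20 with 2.49. Replicates 3 and 4 placed the former at rank 2 of 3R. The sixth region found in every replicate, from 8255125 to 8257453, scored 0.731, at rank 482. Replicates 1 to 4 had 11, 12, 6 and 6 regions in the run and covered 28.9, 34.3, 15.8 and 14.7% of it. The 5 regions of replicates 1 and 2 only had combined scores from 0.579 to 1.35. The sixth region found in every replicate, at 0.731, lay within that range. No gene is named for these positions because no annotation of the lists' build was used here.

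**Figure D3:**
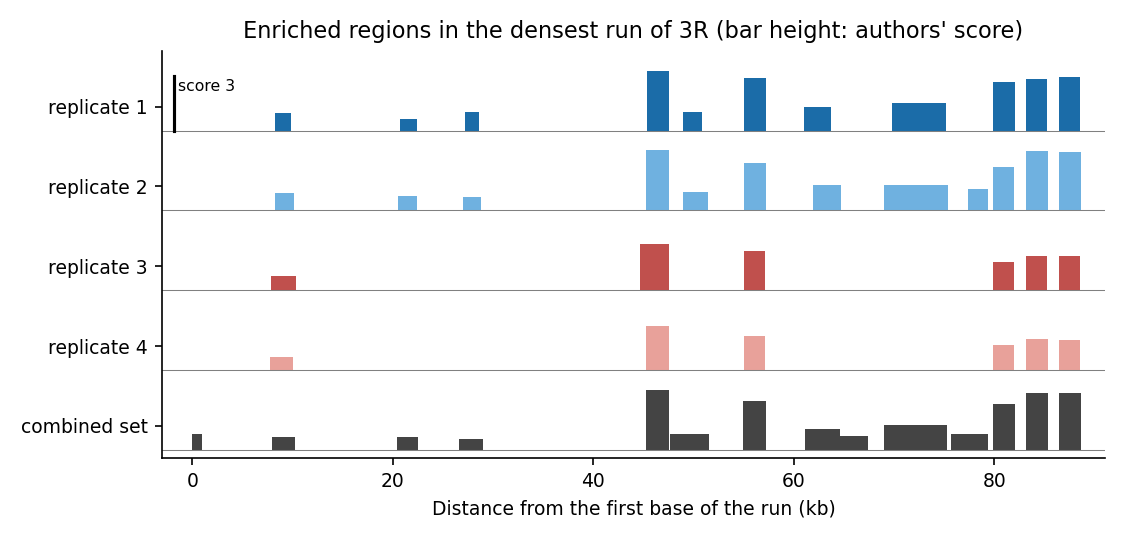
Enriched regions of the 4 replicates and the combined set across the densest run of 3R, against the distance from its first base (kb). Each bar spans a region and its height is the authors' score, whose scale is not shared between lists. The 6 regions of replicates 3 and 4 have a counterpart in replicates 1 and 2, which hold 11 and 12 regions.

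Another run showed the replicates in a different order. From 12047727 to 12132769 (85.0 kb) there were 13 combined regions, 6 of them in all 4 replicates and none in replicates 1 and 2 only. Replicates 1 to 4 had 9, 9, 13 and 6 regions and covered 30.7, 28.7, 34.7 and 17.7%. Its scores were lower, with a highest of 2.13. In the run from 158839 to 260352 (102 kb), which lies in the first 300 kb of the arm, 12 combined regions were found, 5 of them in every replicate. There the replicates had 7, 11, 9 and 8 regions and covered 13.2, 21.8, 19.2 and 14.6%. Over all 832 combined regions of 3R, 344 (41.3%) were found in every replicate and 113 (13.6%) in replicates 1 and 2 only.

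Regions of 3R were spaced more widely than those of X and less widely than those of 2L in every replicate, by their median gaps between the ends. A gap was measured from the end of a region to the start of the next. On 3R with its centromere-side end included, the median gap was 24.3, 22.0, 29.3 and 33.4 kb in replicates 1 to 4. Gaps under 10 kb made up 30.2, 32.8, 25.7 and 25.4% of all gaps on that stretch, a mean of 28.5% ± 3.57 (SD, n = 4). Between the ends the median gap was 27.5 ± 5.63 kb on 3R, against 17.7 ± 1.86 kb on X. The 3R values ran from 22.0 to 34.4 kb and did not overlap the X values of 15.1 to 19.3 kb. On 2L the median gap was 30.5, 28.6, 33.4 and 35.4 kb in replicates 1 to 4, each above the 3R value of 24.0, 22.0, 29.7 and 34.4 kb. The ranges of those arms overlapped. For 3L the mean was 27.1 ± 6.86 kb. These differences were not tested.

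Fewer than 50% of the combined regions of 3R were found in every replicate. Between the ends 319 of 756 regions had an overlap of 1 bp or more in each of the 4 replicates, or 42.2% (Wilson 95% interval 38.7 to 45.7%, counting error only). At the centromere-side end it was 25 of 76, or 32.9% (23.4 to 44.1%). Over all 5697 combined regions of the series the share was 47.1%, and over 3R, 2L, 3L and X between their ends it was 40.2%. The 42.2% of 3R between its ends lay between these values. Both values include the 3R regions themselves, and regions called from the same 4 samples are not independent. The interval therefore does not test 3R against either. Regions between the ends found in all 4 replicates had a median score of 1.39, and those found in none had 0.602. The combined scores and the replicate lists come from the same 4 samples. This difference is therefore no independent support for the shared regions. The 105 combined regions between the ends that no replicate list contained were 13.9% of the 756, beside 13% in the whole series. Their median width was 1302 bp.

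**Figure D4:**
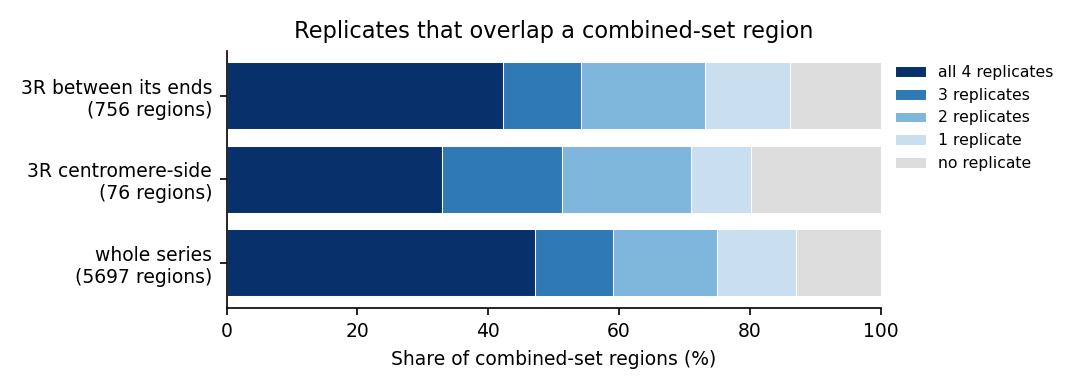
Share of combined-set regions (%) that were overlapped by at least 1 bp in 4, 3, 2, 1 or none of the replicates, for 3R between its ends, its centromere-side end and the whole series. The darkest segment, regions in all 4 replicates, takes 42.2, 32.9 and 47.1%.

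By the bases they covered, the replicates fell into the pairs 1 and 2, and 3 and 4. Between the ends of 3R the Jaccard index, the bases shared by a pair of lists divided by the bases in either, was 0.744 within the first pair and 0.669 within the second. The 4 pairs across ran from 0.486 to 0.582. At the centromere-side end the corresponding values were 0.708, 0.656 and 0.433 to 0.479. The index also falls when the lists of a pair differ in length, as these did. The submitters' experiment numbers are 1914 and 1916 for the first pair and 2026 and 2027 for the second, and the labels do not say that these mark a batch. Of the replicate 4 regions of 3R, 90.3, 90.8 and 89.8% were overlapped in replicates 1, 2 and 3, so this count did not show the second pair. Of the replicate 1 regions, 91.4, 70.1 and 62.3% were overlapped in replicates 2, 3 and 4. The shorter lists were thus mostly contained in the longer ones. Regions of 3R with no overlap in any other replicate were 33 of 613, 73 of 657, 31 of 502 and 13 of 422 in replicates 1 to 4. Replicate 2 had the largest share of them and replicate 4 the smallest. The corresponding shares over the whole series were not computed, so these counts do not set 3R apart from it. Where 1 region in each list met 1 combined region, as for 328 of them, the starts spanned a median of 88 bp over the 4 replicates and the ends 96 bp.

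Regions shared by a single pair were unevenly divided. Between the ends 104 combined regions (13.8%) were found in replicates 1 and 2 only and 11 (1.46%) in replicates 3 and 4 only. In the whole series these shares were 9.02% and 3.12%. Over 3R, 2L, 3L and X between their ends they were 12.02% and 2.43%. On X between its ends 62 regions were found in replicates 1 and 2 only and 35 in replicates 3 and 4 only. At the centromere-side end there were 9 and 3 such regions.

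The regions of replicates 1 and 2 only included most of the wide regions of 3R. Of the 83 members at least 4 kb wide, 45 (54.2%) were found in replicates 1 and 2 only, 25 in all 4 replicates and 0 in replicates 3 and 4 only. Over members of any width, 113 of 832 were found in replicates 1 and 2 only. The 45 wide regions had widths of 4151 to 8896 bp, with a median of 5824 bp, and scores of 0.739 to 2.08. The 25 found in all 4 replicates had a median width of 4971 bp and a median score of 1.68, against 1.21. With a limit of 3 kb in place of 4 kb the share was 36.1%, and with 5 kb it was 66.1%. Several of the 45 scored high in both lists that had them. The region from 1163527 to 1169809, 6283 bp wide, scored 2.14 in replicate 1 (rank 62 of 613) and 2.12 in replicate 2 (rank 44 of 657), and no base of it was enriched in replicates 3 and 4. Those from 15569709 to 15575838, from 5104019 to 5110121, from 4723970 to 4730010 and from 6783035 to 6789708 were likewise absent from replicates 3 and 4, with combined scores from 1.88 to 1.98 and widths from 6041 to 6674 bp. By contrast, the highest score among the 14 members found in replicates 3 and 4 only was 0.769, for a region 1510 bp wide. Between the ends of 3R, 41 of 76 wide regions were found in replicates 1 and 2 only and 23 in all 4. On 2L and 3L the former was also the larger number, at 38 of 81 and 42 of 84, against 36 and 32 in all 4. X went the other way, with 33 of 103 in replicates 1 and 2 only and 58 in all 4. At the centromere-side ends, 4 of 7 wide regions of 3R were found in replicates 1 and 2 only. On 2L, 3L and X the counts there were 4 of 50, 2 of 69 and 6 of 24. The share among the wide regions of the whole series was not computed. The differences between arms were not tested. The 4 kb limit was chosen after the data were seen. The submitters' experiment numbers move with these pairs of replicates, and their part was not tested.

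**Figure D5:**
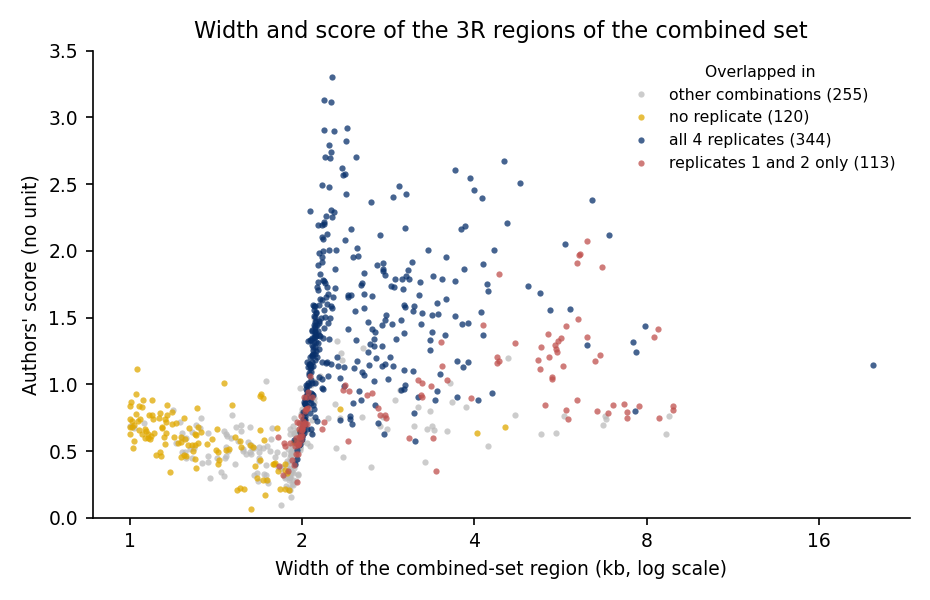
Authors' score (no unit) against width (kb, log scale) for the 832 combined-set regions of 3R, coloured by the replicates that overlap them. Regions in all 4 replicates crowd just above 2 kb and reach scores of 3.31, regions in no replicate lie mostly below 2 kb, and those of replicates 1 and 2 only make up most of the points between 5 and 9 kb.

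Wide regions that all replicates shared were often covered unevenly. The widest of 3R, from 3519949 to 3539799, spanned 19851 bp and was filled to 81.8, 98.3, 38.8 and 36.7% in replicates 1 to 4. It had a combined score of 1.14, at rank 267. The region from 5708390 to 5716012 (7623 bp) went the other way, at 31.8, 57.7, 98.0 and 82.2%. From 26899649 to 26907600 (7952 bp) the coverage was more even, at 88.4, 96.2, 92.6 and 89.2%. That region is the last one inside the rule's limit, and the first one outside it, from 26959230 to 26960513, scored 0.567 against 1.44. The region from 2000928 to 2008602 (7675 bp) begins at the border of the centromere-side end and was covered over 43.8, 85.8, 47.8 and 20.2%. The region from 4877795 to 4884677 (6883 bp) had the highest score of the 5 widest, 2.12, and was covered over 82.7 to 99.2%. At the centromere-side end the widest was 871229 to 878804 (7576 bp), covered over 96.2, 99.1, 53.4 and 53.6%. It was followed by 563724 to 568929 (5206 bp), at 72.9, 72.5, 99.3 and 99.3%, and by 631228 to 634418 (3191 bp), at 63.2 to 65.0%. Between the ends, the longest combined region was 19851 bp on 3R, against 26899 bp on 2L, 16090 bp on 3L and 13426 bp on X. At the centromere-side ends it was 7576 bp on 3R, against 43075 bp on 2L, 100516 bp on 3L and 42506 bp on X.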

How the data were processed

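The submitters deposited lists of enriched regions, 1 for each of the 4 ChIP samples and 1 combined set, in coordinates of FlyBase release 5 per the file headers. Bowtie 0.12.7 is named in the submitters' processing notes. Neither the peak caller and its threshold nor how replicates were joined into the combined set is given in the sources at hand. The score of each region is the authors' own deposited value with no stated scale, and the start and end are as deposited. Inputs entered only through the authors' calls.

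From the lists, covered shares (bases in regions out of the sequence length in the headers), numbers, widths, gaps and overlaps were computed for each replicate. Between 2 and 9 regions per list ran past a sequence end and were clipped, none of them on 3R. On every arm the 2 Mb at the centromere side and the 1 Mb at the telomere side were set apart. Assembly gaps were not removed. Ratios were formed within each replicate and tested by exact two-sided sign-flip permutation with Benjamini-Hochberg adjustment over 9 tests. The code was tested on simulated lists. Alternatives tried were merging across 1 kb, keeping only the higher-scoring 50% of every list, reciprocal overlap of 50%, other window lengths, regions per Mb, the whole arm, and leaving out each replicate.

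Regions named were, among those overlapped in all 4 replicates, the 10 highest-scoring and 5 widest between the ends and the 5 highest-scoring and 3 widest at the centromere side. The 3 highest and 3 lowest windows of 1 Mb, the 3 highest of 100 kb and the 3 densest runs were also named. Regions outside this rule were named after their values were seen. The members and lists were chosen with earlier results of these data known. Genes and sequences under the regions were not analysed here, because the gene table at hand is of release 6. Python 3.11.15, NumPy 2.4.6, SciPy 1.17.1 and Matplotlib 3.10.9 were used.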

Additional observations from a re-analysis of the deposited data

Results flagged for a closer look

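Each set of 4 replicate values behind the covered shares, ratios and named regions of 3R was examined for a replicate standing far from the other 3. Of 49 such sets, 0 held one by Dixon's 95% criterion, where chance alone would give about 1 in 20 if the sets were independent. They are not, since all come from the same lists. The criterion looks for 1 replicate apart from the other 3, so it can hardly flag a split of the replicates into pairs.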

How the results depend on the processing

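Over 14 results and 105 alternatives, 87 left the direction and the side of the threshold, or the value within its spread, as reported. Between the ends, the ratio of 3R to X kept its direction under every alternative run. So did the ratios of the 3R centromere-side end to those of 2L, 3L and X. The ratio of that end to the rest of 3R kept the direction of its mean log2 value. In the higher-scoring 50%, however, only 3 of 4 replicates had that direction. No p could pass 0.05 with 4 replicates, so these statements concern direction only. The log2 ratio of 3R to 2L between the ends, 0.01, became -0.22 in the higher-scoring 50% of each list. It was -0.044 with a centromere-side window of 1 Mb and -0.039 when the arms ran to the telomere-side end. With a 3 Mb window it was 0.085, above 0 in 4 of 4 replicates. When a replicate was left out it ranged from -0.00259 to 0.0160. The ratio to 3L, -0.04, became 0.082 in the higher-scoring 50%, and with one sign in 4 of 4 replicates it was -0.53 with the 1 Mb window, -0.063 with a 3 Mb window and -0.11 to the telomere-side end. The log2 width ratio of the centromere-side end to the rest became 0.19 in the higher-scoring 50%, 0.014 after merging and 0.048 with the 1 Mb window. The score difference became 0.0103 with the 1 Mb window and ranged from -0.0210 to 0.0224 when a replicate was left out. The mean Jaccard index between the ends, 0.593, was 0.381 in the higher-scoring 50%, and the share of regions in all 4 replicates was 14.5% there. With a replicate left out, the share found in all remaining replicates ran from 42.7 to 50.5%, highest without replicate 4. That share cannot lie below the share in all 4 replicates, so its rise was fixed in advance. The ratio of the most covered 1 Mb window was 2.51 in the higher-scoring 50%, and gaps under 10 kb were 15.4% there and 22.4% after merging. The higher-scoring 50% kept 42.7, 40.5, 21.9 and 14.2% of the 3R regions of replicates 1 to 4. The share of wide regions found in replicates 1 and 2 only was 36.1% at a limit of 3 kb and 66.1% at 5 kb, alternatives chosen after seeing the data. The cause of these shifts was not tested. The ratios of 1 stretch to another already pair values of the same replicate. No paired analysis was possible because, between ChIP and input, inputs entered only through the authors' calls and no other group's values were compared. The lists carry no depth, so absence from a list does not show that HP1a was absent there.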
